A study of Arabidopsis thaliana with 4 samples.

Results

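AUR1, AT2G36200 and SIM are 3 Arabidopsis thaliana genes of the cell division machinery, taken by name out of 13286 loci for which the platform annotation used here lists a probe set of their own on the ATH1 array. AUR1 (AT4G32830) encodes an Aurora kinase, AT2G36200 encodes a kinesin, and SIM (AT5G04470, SIAMESE) encodes an inhibitor of cyclin-dependent kinases. They were picked with the difference between the lines tmm-1 and Col-3 gl1 already known, so their own differences are given as a description and with no p-value.

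The series compared the mutant tmm-1 with Col-3 gl1 in inflorescence tips at growth stage 6.10, with 2 Affymetrix ATH1 arrays per line and a pool of tissue on each array. TMM encodes a receptor-like protein that patterns stomata, and the gl1 mutation carried by the control line removes most leaf hairs (trichomes). The mutant came from the seed stock CS6140, and the labels do not say whether it also carries gl1, or whether the pools came from separate plants. All plants shared a growth chamber regime of 22 °C and 70% humidity, with a 16 h day. The number of probe sets listed for TMM or GL1 was 0, so the line labels were not checked against the mutated genes.

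A plant cell that divides builds a spindle, separates its chromosomes and then lays down a new wall with the phragmoplast, an array of microtubules. Aurora kinases phosphorylate histone H3 and spindle proteins in mitosis, and kinesins carry cargo along microtubules or slide them against each other. SIM acts on the other side of the balance: it blocks the kinases that drive mitosis, so that cells copy their DNA again without dividing, a process called endoreduplication. Loss of SIM is known for giving trichomes of many cells in place of one, and inflorescence tips hold many dividing cells in meristems and young flowers.

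Values are MAS5 signals in array units, on a scale shared by the arrays. The 4 arrays had median signals of 40.7 to 45.5. The 10th percentile was 3.06 on tmm-1 replicate 2 and 1.54 to 1.60 on the other arrays, so the dim end of that array lay higher. That array also stood apart as a whole: across all probe sets its log2 signals correlated at 0.968 to 0.973 with the other arrays, which correlated at 0.980 to 0.982 among themselves, so tmm-1 replicate 1 was closer to both controls than to its own replicate. Without tmm-1 replicate 2 the log2 differences described below were 0.35 for AUR1, 1.00 for AT2G36200 and 0.10 for SIM. For actin, the 3' control probe set over the 5' one, a sign of RNA quality, gave 2.29 and 2.47 in the mutant against 2.25 and 2.39 in Col-3 gl1. The highest signal of 27 Bacillus control probe sets, for which a plant has no transcript, was 21.2 and serves as a yardstick for background. Each of the 3 genes had 1 probe set, with signals above that yardstick on every array, and each passed the filter on a mean signal of at least 10.

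The AUR1 probe set gave 258 and 263 in pools 1 and 2 of tmm-1, and 201 in each pool of Col-3 gl1. Both mutant arrays were higher than both control arrays, and within each line the values were close together. The mean was 261 ± 3.14 (SD, n = 2) in tmm-1, against 201 ± 0.335 in the control, a difference of 29.7%. On the scale of log2(signal + 10), used for all differences below, tmm-1 minus control was 0.36 ± 0.15 (SE). The SE is the moderated one of limma, a linear model fitted to all probe sets, and is wider than the spread of AUR1's own arrays. The control arrays lay only 0.0032 apart on the log2 scale, and 99.1% of the 16960 probe sets tested had a larger gap there, so the SD of 2 arrays may understate the error of this gene.

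AT2G36200 showed the widest difference of the 3 genes. Its signals were 160 and 134 in the mutant against 61.3 and 90.3 in Col-3 gl1. The lines did not overlap, but neither line held a narrow level. The mean was 147 ± 17.9 (SD, n = 2) in tmm-1, against 75.8 ± 20.5 in the control, a ratio of 1.94, and the log2 difference was 0.89 ± 0.19 (SE). The 2 control arrays lay 0.49 apart on the log2 scale, against a median of 0.19 over all probe sets tested, and 11.4% of probe sets had a wider control gap. The lower of the 2 control values was that of replicate 1. Without that array the log2 difference was 0.64, and without control replicate 2 it was 1.13. The size of the difference thus moved with the control array used, while its sign could not turn, since the lines do not overlap.

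SIM differed least. Its signals were 117 and 128 in the mutant against 109 and 107 in Col-3 gl1. Both mutant values were the higher ones, and the nearest values of the 2 lines, 117 and 109, lay closer to each other than the mutant arrays lay to each other. The mean was 122 ± 7.77 (SD, n = 2) in tmm-1, against 108 ± 1.34 in the control, a difference of 13.3%, and the log2 difference was 0.16 ± 0.17 (SE), smaller than its SE.

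**Figure D1:**
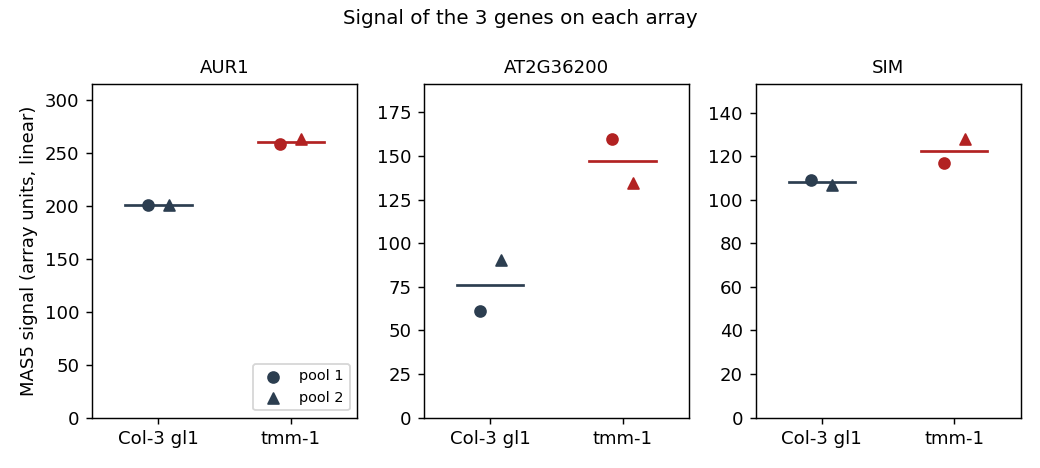
MAS5 signal in array units (linear axis from 0) of AUR1, AT2G36200 and SIM on each of the 4 arrays, with circles for pool 1, triangles for pool 2 and a bar at the mean of each line. In each gene both tmm-1 arrays lie above both Col-3 gl1 arrays; the AT2G36200 control values of 61.3 and 90.3 lie far apart, while the AUR1 values lie close together within each line.

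All 3 genes had both mutant signals above both control signals, a pattern that 21.5% of all probe sets tested had in this direction. Limma called 1 of the 3 at an adjusted p below 0.05, AT2G36200, where it called 0.242% of all probe sets tested higher in tmm-1. Because this same contrast was in view when the genes were chosen, neither count, nor any call of these 3 genes under another setting, is a test of them, and nothing is read from them. Among all probe sets tested, 1.01% had a larger log2 difference than AT2G36200, 11.6% a larger one than AUR1 and 29.6% a larger one than SIM. Limma did not call AT2G36200 without the signal filter, after quantile normalization, after scaling to the median, without the intensity trend or without Col-3 gl1 replicate 1. In a whole tissue, more cells of a dividing type and more RNA per such cell cannot be told apart.

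**Figure D2:**
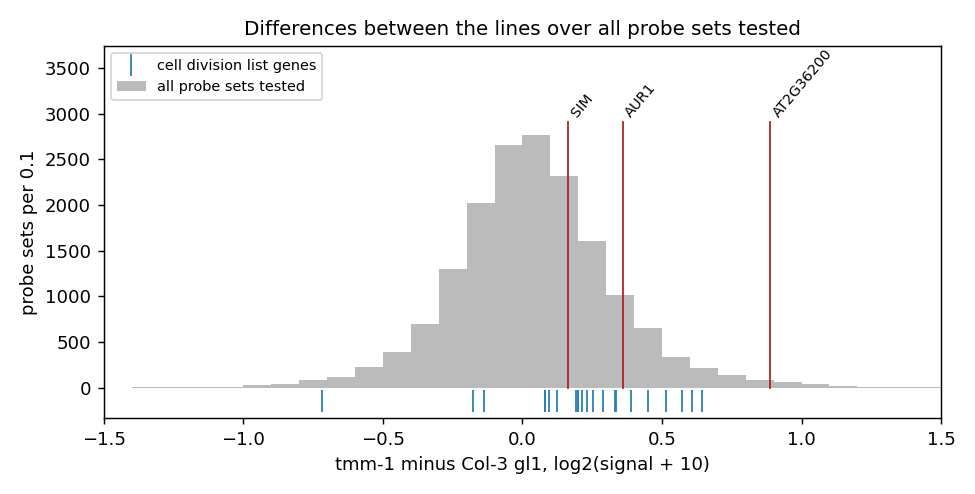
Histogram of tmm-1 minus Col-3 gl1 on the log2(signal + 10) scale for all probe sets tested (grey, probe sets per bin of 0.1; the axis shows -1.5 to 1.5), with AUR1, AT2G36200 and SIM as red lines and the other tested genes of the cell division lists as blue ticks. AT2G36200 lies in the right tail at 0.89, AUR1 on the right shoulder at 0.36 and SIM at 0.16 near the middle, and most of the ticks lie to the right of 0.

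The partners of these genes were read from 14 lists of cell division genes chosen by their known roles. The lists named 183 loci, of which 25 had a probe set listed for them alone in the annotation, which leaves 8794 of the 22810 probe sets of the array unlisted, and 24 passed the signal filter; AUR1 and SIM are 2 of these, so the counts that follow leave them out. AT2G36200 is on no list, since the reference does not name it a kinesin. Of the remaining 22 genes, limma called 0 higher and 0 lower, where it called 0.613% of all probe sets tested (0.242% higher and 0.371% lower), and 5 had an unadjusted p below 0.05, a share that was 8.81% over all probe sets. Their median log2 difference was 0.22, beside 0.03 over all probe sets tested, and 19 of 22 were above 0, where 55.0% of all probe sets were. The count above 0 was 17 of 22 after scaling to the median, where AUR3 and BUB3.1 turned, and 18 after quantile normalization, where BIN4 turned; without tmm-1 replicate 2 it was 17 of 22, with a median of 0.22. In 12 of the 22 both mutant arrays were above both controls, against a background of 21.5%, and in 3 both were below, against 16.8%. All 22 were read on the same arrays, so they are not separate replicates of the lines, and their shift as a set was not tested. No single gene on these lists passed the test, and some of these genes were known from earlier results when the lists were drawn up.

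Aurora kinases and their partners come first, as the group of AUR1. The Aurora kinase gene closest in role, AUR2 (AT2G25880), had signals of 190 and 166 in the mutant against 134 and 172 in Col-3 gl1, a log2 difference of 0.21 ± 0.17 (SE), which was 0.045 without control replicate 1 and 0.38 without control replicate 2. AUR3 (AT2G45490), which encodes the Aurora kinase found at centromeres, had 71.8 and 99.8 in the mutant against 101 and 62.4 in Col-3 gl1, at 0.08 ± 0.21, or at -0.23 without control replicate 2 and -0.13 without tmm-1 replicate 2. In both genes the lines overlapped, unlike in AUR1, and the difference between the Aurora genes was not tested. WYR (AT5G55820), which encodes the plant counterpart of the inner centromere protein INCENP, a partner that activates Aurora kinases, was at 0.20 ± 0.22 with overlapping lines, or at 0.019 without control replicate 1 and 0.38 without control replicate 2. AT4G39630, placed on this list from general knowledge and given by locus alone in the reference, had 77.1 and 92.3 in the mutant against 69.7 and 71.2 in Col-3 gl1, at 0.23 ± 0.19, or at 0.11 without tmm-1 replicate 2. AUR1 and AUR2 encode similar proteins; the AUR1 probe set is listed for AUR1 alone, and whether it also binds AUR2 transcripts was not tested.

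Kinetochore and checkpoint genes held the highest log2 difference on the lists, that of BUBR1. This gene (AT2G33560) encodes a kinase-related protein of the checkpoint that delays anaphase, and had signals of 49.3 and 54.5 in the mutant against 30.5 and 28.7 in Col-3 gl1. Its log2 difference was 0.64 ± 0.23 (SE), with a limma adjusted p of 0.331 over all probe sets. Its 2 mutant arrays lay well above its 2 control arrays, yet the fit did not call it. HTR12 (AT1G01370), the centromeric histone H3 on which kinetochores are built, had 63.3 and 70.8 in the mutant against 42.7 and 45.0 in Col-3 gl1, at 0.51 ± 0.21 (limma adjusted p = 0.419). BUB3.2 (AT1G49910), a checkpoint protein gene, was at 0.45 ± 0.24, also without overlap between the lines, with 0.18 when tmm-1 replicate 2 was left out and 0.72 when tmm-1 replicate 1 was. BUB3.1 (AT3G19590), of the same checkpoint, was at 0.08 ± 0.16 with overlapping lines. The 4 genes of this group that could be tested, of 9 listed, had a median log2 difference of 0.48, beside 0.03 for all probe sets tested.

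Among kinesins, the reference names 23 loci by that word, and the annotation lists a probe set of its own for 2 of them. KINESIN-12B (AT3G23670), a motor of the phragmoplast, had 85.6 and 89.0 in the mutant against 64.4 and 70.0 in Col-3 gl1, a log2 difference of 0.34 ± 0.19 (SE). KINESIN-13A (AT3G16630), of a kinesin class known for taking microtubules apart, was at 0.20 ± 0.15 (0.11 without tmm-1 replicate 2), with 318 and 363 in the mutant against 284 and 305 in Col-3 gl1. Neither was called, and both values lay below that of AT2G36200, 0.89; the difference between these genes was not tested. KEU (AT1G12360), which acts in the fusion of vesicles into the cell plate and was the 1 cytokinesis gene of 19 listed that could be tested, was lower in both mutant arrays, with 189 and 181 against 198 and 212, at -0.14 ± 0.16.

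The SIAMESE family is the group of SIM. Of its 9 listed members 5 were tested, SIM and 4 more, the latter placed there from general knowledge and given by locus alone in the reference. AT1G08180 had signals of 27.4 and 29.6 in the mutant against 20.6 and 10.8 in Col-3 gl1, a log2 difference of 0.61 ± 0.33 (SE). AT1G10690 had 23.2 and 35.0 in the mutant against 18.1 and 14.1 in Col-3 gl1, at 0.57 ± 0.32. Both were dim, with all control signals under the Bacillus yardstick of 21.2, so their size is uncertain; the first was at 0.33 without control replicate 2 and the second at 0.35 without tmm-1 replicate 2. AT5G02420 was at 0.25 ± 0.31, with 26.7 and 24.8 in the mutant against 21.8 and 18.3 in Col-3 gl1. AT5G40460, the brightest of these 4, went the other way, with 89.1 and 73.8 in the mutant against 93.9 and 92.2 in Col-3 gl1, at -0.18 ± 0.18, a value of -0.06 without tmm-1 replicate 2 but -0.30 without the other mutant array. None of the 4 was called by limma at an adjusted p below 0.05, where it called 0.613% of all probe sets tested. Nor had any of the 4 an unadjusted limma p below 0.05, a share that was 8.81% over all probe sets.

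Genes of DNA copying and of cell cycle control gave the following. Few of those listed could be tested: 1 of 21 for replication, 2 of 16 transcription factors and 2 of 16 for the anaphase-promoting complex. PRL (AT4G02060, PROLIFERA), a subunit of the helicase that opens DNA for replication, had 262 and 329 in the mutant against 209 and 236 in Col-3 gl1, a log2 difference of 0.39 ± 0.16 (SE, limma adjusted p = 0.450). Leaving out tmm-1 replicate 2 brought it to 0.23. HTB2 (AT5G22880), a histone H2B gene, was at 0.29 ± 0.15, with 336 and 360 in the mutant against 299 and 268 in Col-3 gl1. TSO1 (AT3G22780), a regulator of division in floral meristems, had 214 and 205 in the mutant against 162 and 167 in Col-3 gl1, at 0.33 ± 0.16. None of these 3 was called; they were named because their lines did not overlap. In the 2 tested genes of the same groups whose lines overlapped, the differences were 0.19 ± 0.18 for SOL1 (AT3G22760), related to TSO1, and 0.09 ± 0.18 for HBT (AT2G20000), a subunit of the anaphase-promoting complex. BIN4 (AT5G24630), a component of the topoisomerase needed for high rounds of endoreduplication, was at 0.12 ± 0.34 with overlapping lines and signals of 13.9 to 24.6, or at -0.12 without control replicate 1. CDC27a (AT3G16320), a further subunit of the anaphase-promoting complex, had the lowest log2 difference on the lists, with 19.2 and 9.13 in the mutant against 21.3 and 38.2 in Col-3 gl1, at -0.72 ± 0.35, with both mutant values under the yardstick of 21.2, and it was not called; it stood at -0.41 without tmm-1 replicate 2, and at -0.40 once control replicate 2 was left out. The listed cyclins, cyclin-dependent kinases and KRP inhibitors had no probe set listed for them alone in the annotation used, and are not analysed here.

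**Figure D3:**
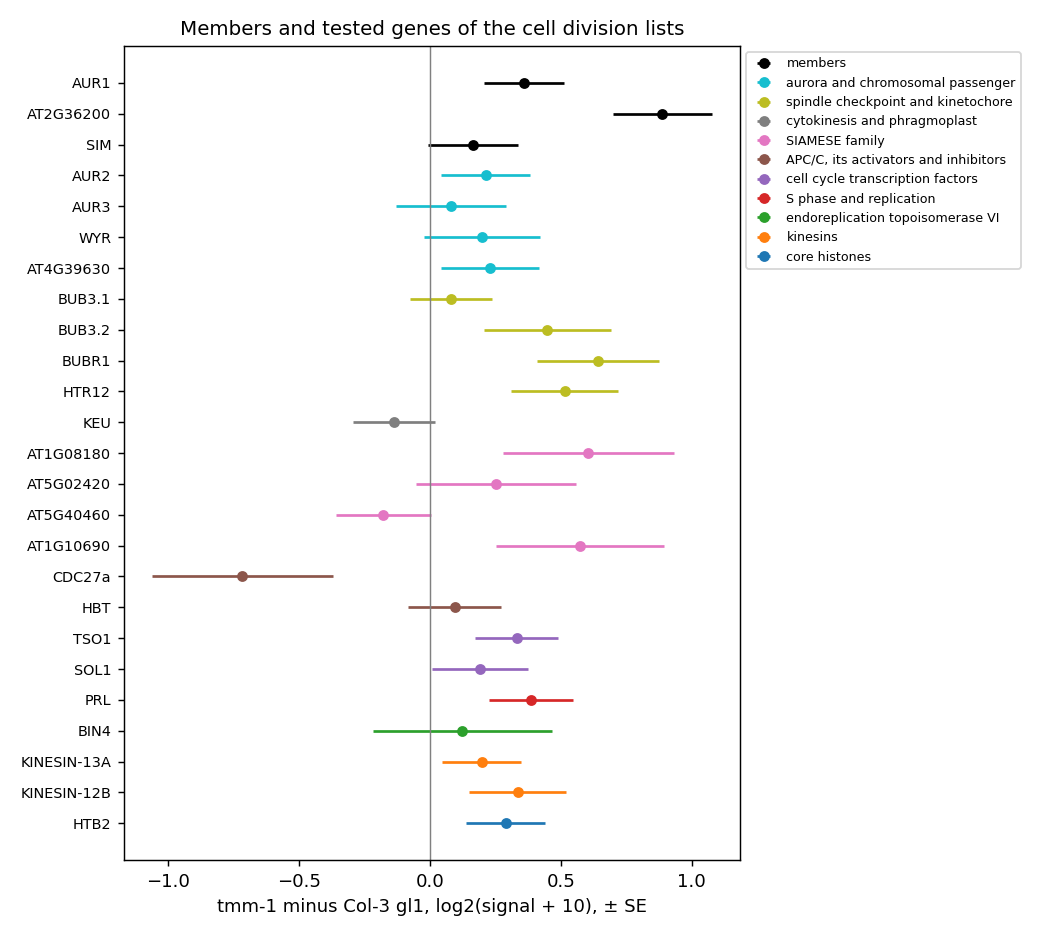
tmm-1 minus Col-3 gl1 on the log2(signal + 10) scale (points) with the moderated SE (bars) for AUR1, AT2G36200 and SIM in black and for the other 22 tested genes of the cell division lists, coloured by list. Of those 22, 19 lie to the right of 0 (17 after scaling to the median, 18 after quantile normalization), with BUBR1 farthest at 0.64, and KEU, AT5G40460 and CDC27a lie to the left; limma called none of the 22.

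Other cell types in the tips were read from 6 marker lists beside these results. Photosynthesis genes of leaf-like tissue, 3 of 5 listed, had summed signals of 3700 and 3931 in the mutant against 4800 and 3983 in Col-3 gl1, with LHCB4.1 the brightest. The log2 differences were -0.28 ± 0.14 for LHCB4.1, -0.11 ± 0.14 for PRK and -0.10 ± 0.16 for RCA, whose lines overlapped. Stomatal lineage genes, 3 of 8 listed, summed to 127 and 115 in the mutant against 117 and 111 in Col-3 gl1. Trichome genes, 2 of 8, summed to 93.8 and 67.0 in the mutant against 52.7 and 69.1 in Col-3 gl1. These sums overlapped between the lines for stomatal and trichome genes. For photosynthesis genes they did not, but only by the narrow margin between 3931 and 3983. Single markers moved apart within them: the trichome gene GIS had 62.7 and 59.6 in the mutant against 38.7 and 40.0 in Col-3 gl1, at 0.53 ± 0.21, a wider difference than that of AUR1. SPCH of the stomatal lineage was higher on both mutant arrays, at 0.32 ± 0.22, and FMA lower on both, at -0.21 ± 0.20. Each differed by a narrow margin on tmm-1 replicate 2. The trichome gene TRY overlapped, at -0.20 ± 0.39, and was under the yardstick of 21.2 on 2 arrays. None of these markers was called, and their part in the differences of AUR1, AT2G36200 and SIM was not tested. Markers of meiosis (3 of 7) stayed at or under 16.2 on every array, and the 2 of 14 floral and meristem genes that the annotation lists, UFO and CLV3, at or under 4.35, all below the yardstick of 21.2. The tissue label was therefore not checked against its other defining genes, whose probe sets are not listed in the annotation used here. Tapetum and pollen genes (2 of 6) summed to 32.6 and 14.4 in the mutant against 23.4 and 31.5 in Col-3 gl1. AT5G07230 was under the yardstick of 21.2 on all 4 arrays and EMS1 on 2, so these sums are uncertain.

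The loci with signals most like those of each gene were found by the root mean square difference of log2 values over the 4 arrays, each centred on its own mean, among 9419 other tested loci. For AUR1 they were AT1G56090, AT1G18900, AT1G26090, AT2G46060 and AT4G32560, at 0.014 to 0.018. For AT2G36200 they were AT1G48220, AT5G37530, AT3G56280, AT2G39640 and AT5G44300, at 0.043 to 0.12. Of those 5, 4 had both control signals under the yardstick of 21.2. AT1G48220, AT2G39640 and AT5G44300 were under it on both mutant arrays too, and AT3G56280 had 22.4 and 21.8 there. The exception, AT5G37530, had 78.0 and 68.5 in the mutant against 32.1 and 42.2 in Col-3 gl1. For SIM they were AT5G52180, AT2G32040, LIL3:1, AT2G41830 and AT3G61610, at 0.0036 to 0.017. Of these 15 loci, 0 were on the cell division lists. With 4 arrays many loci share any given pattern, so the likeness describes these arrays only.

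**Figure D4:**
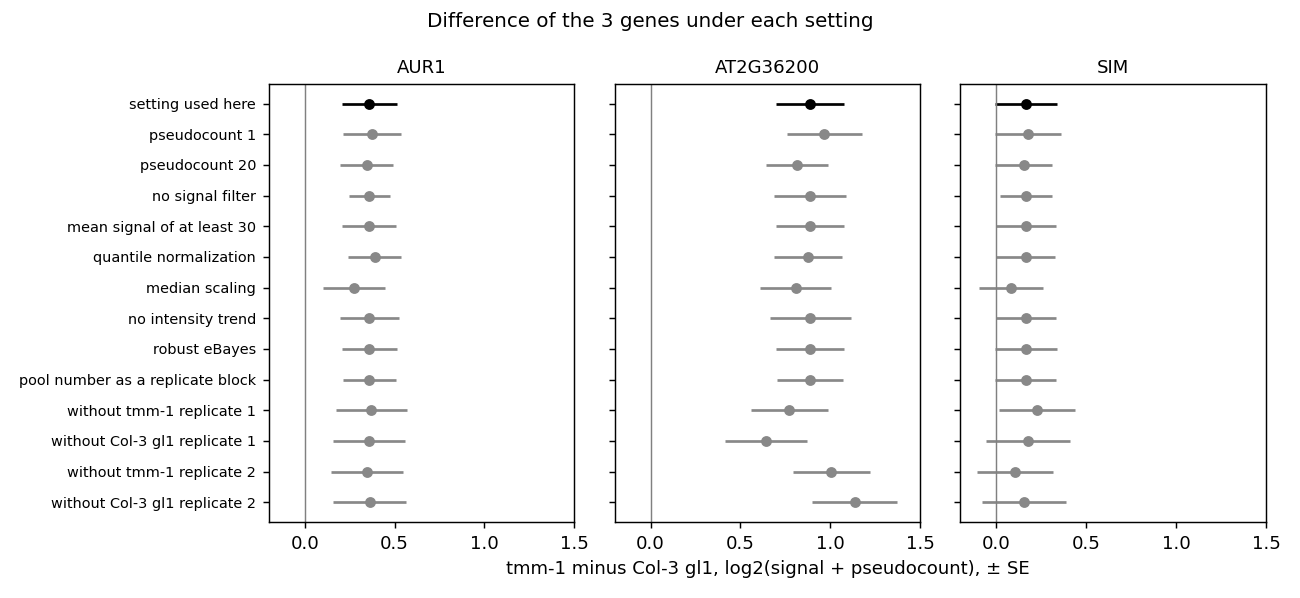
tmm-1 minus Col-3 gl1 on the log2 scale with SE for AUR1, AT2G36200 and SIM under the setting used here (black) and 13 alternatives (grey), including each array left out in turn. AUR1 lies between 0.27 and 0.39 throughout, SIM between 0.08 and 0.22, and AT2G36200 between 0.64 and 1.13, with its lowest and highest values where a control array is left out.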

How the data were processed

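RNA of 4 pools of inflorescence tips was measured on 1 array each, 2 per line; the pool number served as the replicate number. The deposited intensity values are MAS5 signals on a linear scale, made with MAS5 and GCOS per the submitters' processing notes; the 2% trimmed mean was 100 on each array, so they were not scaled again. The 64 array controls were left out. Of 22810 probe sets, 13436 stood for a single RefSeq locus (TAIR10.1), and the brightest probe set stood for a locus. Probe sets with a mean signal of at least 10 were tested on log2(signal + 10), which understates the change of dim genes, with limma 3.58.1 in R 4.3.3 (lmFit, eBayes with an intensity trend, two-sided, Benjamini-Hochberg over 16960 probe sets, called at an adjusted p below 0.05). Prior degrees of freedom were 23.6, so SEs and p-values rest mostly on the trend over all probe sets, and otherwise on differences between pools that could be technical. An exact permutation test of 2 against 2 arrays cannot go below 0.333. Precision is limited by how few arrays there are.

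The members and lists were chosen with earlier results of these data known. Named genes were the members, tested genes of the Aurora, SIAMESE, KRP and topoisomerase VI lists, called genes and up to 3 genes without overlap per other list, and the 5 loci most like each member. BUB3.1, SOL1 and HBT, whose lines overlapped, were named outside this rule. The marker and tubulin genes named were chosen after their values were seen. The labels do not say that the pool number marks a shared batch, so it was no block. As a check, same-numbered pools did not deviate together (correlation 0.032 across probe sets).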

Additional observations from a re-analysis of the deposited data

How the results depend on the processing

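Over all probe sets, limma called 104 (41 higher and 63 lower in tmm-1), 17 without the signal filter, 69 after quantile normalization, 0 without the intensity trend (0 higher and 0 lower) and 191 with pools as a replicate block. Scaling to the median gave 111, of which 31 were higher and 80 lower. Leaving out 1 array gave 77 to 662 calls, where the lone array is taken to vary as the other line does; 662 came without tmm-1 replicate 1, and 167 without the other tmm-1 array. The log2 difference of AUR1 was 0.37 with a pseudocount of 1 and 0.35 with 20. It was 0.39 after quantile normalization and 0.27 after scaling to the median, where SIM stood at 0.082. These moves exceeded the spread between arrays of those genes. In these 3 genes 0 signs turned. Only quantile normalization or scaling to the median could have turned a sign, since both mutant arrays lay above both controls in each gene. Leaving out 1 array moved AT2G36200 from 0.64 to 1.13, AUR1 from 0.35 to 0.37 and SIM from 0.10 to 0.22. Limma called 0 of the other list genes under each alternative, with 17 tested at a mean signal of at least 30, 23 without the filter and 22 otherwise, and medians of 0.14 to 0.34. Signs that turned were those of BIN4 (-0.0040 after quantile normalization), AUR3 (-4.8e-04) and BUB3.1 (-0.0037) after scaling to the median, and, with 1 array left out, HBT (-0.028), BIN4 (-0.12 to 0.36) and AUR3 (-0.23 to 0.39). The cause of these changes was not tested. No listed locus had several probe sets, so averaging them changed nothing. Signals at or under 21.2 limit what dim genes can show.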

Other observations

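Microtubule genes lay on both sides of 0. Searching the reference names for words of cell division, chosen after the values of the listed genes were seen, added 10 tested loci beyond the lists. Of these, 9 came from the words for microtubules and tubulin, and the other was POLH, a DNA polymerase gene. The words for mitosis and for chromosome structure added no tested locus, so the values below mainly describe microtubule genes. Limma called 0 of the 10, where it called 0.613% of all probe sets tested. An unadjusted limma p below 0.05 was found for 2, against 8.81% of all probe sets. Their median log2 difference was -0.02, beside 0.03 over all probe sets, and 5 of 10 were above 0, where 55.0% of all probe sets were. TUB1 (AT1G75780), a beta-tubulin gene, had signals of 287 and 270 in the mutant against 230 and 164 in Col-3 gl1, at 0.50 ± 0.17 (SE). TUB5 (AT1G20010), of the same family, went the other way, with 478 and 392 in the mutant against 667 and 519 in Col-3 gl1, at -0.43 ± 0.16. TUB7 (AT2G29550) was at 0.22 ± 0.14 and TUA1 (AT1G64740), an alpha-tubulin gene, at -0.26 ± 0.18, both without overlap between the lines. The remaining microtubule genes found this way, PFI, TUB9, TUA6, POR and TUB6, lay between -0.21 and 0.24. Among them, TUB9 at 0.24 and POR at -0.21 also had lines without overlap. Whether these differences differ from those of the mitotic lists was not tested.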
